A study of Mus musculus with 11 samples.

Results

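Collagens, laminins and integrins were followed over whole-brain microarrays of 11 mice. All probe sets naming a single gene whose symbol begins with Col and a digit, with Lama, Lamb or Lamc and a digit, or with Itga or Itgb were taken, apart from 1 gene that is not analysed here. This gave 59 genes of the 8252 named on the array, measured by 91 probe sets: 30 collagen genes, 9 laminin genes and 20 genes named for integrins. One of the last, Itgb1bp1, encodes a cytoplasmic protein that binds an integrin tail and is no receptor itself.

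The study compared mice lacking the nicotinic receptor subunit β4, a ligand-gated channel subunit encoded by Chrnb4, with their wild-type littermates, all untreated and of strain C57BL/6J. Each array held the RNA of 1 brain. The 6 wild-type brains came from 4 males and 2 females aged 6 to 9 weeks, and the 5 null brains came from 2 males, both 9 weeks old, and 3 females aged 7 or 8 weeks. The null allele is carried in every cell of the body, and the labels name no other allele. The mouse numbers begin with B4 for 8 mice, including all 5 null mice, and with LT for 3 wild-type mice, and the labels do not say what these letters mean. The disrupted gene has no named probe set on the array, so the genotype labels could not be checked on it. Markers of neurons, astrocytes and oligodendrocytes were present in all brains, as were those of vessels, meninges and choroid plexus. In bulk tissue, fewer cells of a type and less RNA per cell cannot be told apart.

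Collagens are triple helices of 3 chains, which build fibrils in connective tissue, networks in basement membranes and filaments around cells. Laminins are trimers of an alpha, a beta and a gamma chain that, with type IV collagen, form the basement membrane sheet. Integrins are receptors of an alpha and a beta subunit that bind these proteins outside the cell and link them to the cytoskeleton. In brain, basement membranes line the blood vessels and the pial surface, fibrillar collagen lies mostly in the meninges and vessel walls, and the parenchyma is poor in both.

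Values are MAS5 signals, a linear intensity scaled by the authors so that each array has the same trimmed mean of about 150.1. Differences are on the log2 scale, given with their standard error (SE), and the threshold was an adjusted p of 0.05 in limma, adjusted over all 7453 probe sets whose mean signal reached 25.8. Of the member probe sets, 45 (49.5%), of 35 genes, reached that level, against 60% of all probe sets. Both male null brains stood apart from the other 9 before any gene was considered. Their 3'/5' signal ratios of Gapdh probe sets, a measure of RNA quality, were 0.859 and 0.798 against 2.19 to 5.92 elsewhere, and their median signals were 58.3 and 56.3 against 43.6 to 49.75. Genotype, sex and age values of the members described are therefore given with and without them, and the part of RNA quality in them was not tested beyond adding the ratio to the model. Among the other 9 brains the ratio was 2.75, 2.19 and 3.58 in null females and 3.57 to 5.92 in wild-type brains. Leaving out the male null brains thus does not make the genotypes alike in this ratio. Nothing in the labels says how RNA extraction or hybridisation was batched.

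Expression was uneven across the families. Among the collagens, 21 probe sets of 19 genes reached the level for testing, with medians over the 11 brains from 24.8 to 378.7. They covered the fibrillar chains Col1a1, Col1a2, Col3a1, Col5a1 and Col5a2, the type IV chains Col4a1 and Col4a2 of vascular basement membranes, all 3 chains of collagen VI, all 3 of collagen IX, and Col7a1, Col13a1, Col15a1, Col18a1, Col19a1 and Col26a1. The laminins had 7 probe sets of 6 genes above it, for Lama1, Lama2, Lama4, Lama5, Lamb1 and Lamc1. The integrins had 17 probe sets of 10 genes above it, for Itga3, Itga6, Itga7, Itgav, Itgax, Itgb1, Itgb4, Itgb5, Itgb7 and the binding protein Itgb1bp1. These 45 probe sets varied more between brains than the array as a whole, with a median SD of 0.42 on the log2 scale against 0.33 over all probe sets tested.

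The other 46 probe sets were dim, with medians over the brains from 1.2 to 29.5, and 24 genes were measured by such probe sets alone. They included the cartilage collagens Col2a1, Col10a1, Col11a1 and Col11a2, the epithelial chains Col17a1, Lama3 and Lamb3, and Col4a3, Col4a4 and Col4a5, which form the kidney and lung type of the type IV network. Col12a1, Col14a1 and Col22a1, which bind to fibrils, completed the dim collagens. Among integrins, Itga2, Itga4, Itga5, Itga8 and Itgb3 were dim, and so were Itgae, Itgal, Itgam, Itgb2 and Itgb2l, of the leukocyte integrins. A dim probe set can also be a poor probe, since Col18a1 had 1 tested probe set and 4 dim ones. Lamb2, a beta chain of synaptic and vascular laminins, had the highest single signals among the dim probe sets and is named because of them. It read 68.4 and 55.3 in null males, 22.2, 29.5 and 39.2 in null females, and between 5.8 and 35.8 in wild-type brains. Since it was picked for these signals, the higher values of the male null brains are no separate result. Of all probe sets tested, 20.7% had both male null brains above all others.

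The first comparison asked how the members differ between null and wild-type brains, with sex in the model. No member passed the adjusted threshold in limma (0 of 45, against 0.0268% of all probe sets). At an unadjusted p under 0.05 there were 6 member probe sets, 13.3% of those tested, against 23.1% of all. Of these, 4 were higher and 2 lower in null brains, against 13.4% higher and 9.69% lower over the array. No member's null and wild-type brains were fully separated, against 0.59% of all probe sets with every null brain higher and 0.496% with every null brain lower. The median difference over the 45 was 0.06, and over all probe sets 0.03. By family it was 0.14 for collagens, -0.24 for laminins and 0.17 for integrins. Without the male null brains these medians were -0.11, 0.10 and 0.14, so the collagen and laminin signs turned.

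Among the fibrillar collagens, Col5a1, a chain that starts and thins fibrils, read between 106.8 and 156.3 in wild-type brains with a median of 117, and 184.3, 150, 137.4, 129 and 138.9 in null brains. Its null brains all lay above the wild-type median, and the difference was 0.31 (SE 0.14, unadjusted p = 0.047, adjusted p = 0.21). It was 0.26 without the male null brains (unadjusted p = 0.21). The Col1a1 and Col1a2 chains of collagen I differed by between -0.45 and 0.23 over their 4 probe sets, with unadjusted p from 0.23 to 0.40. Col3a1 differed by -0.06 (SE 0.33) and Col5a2 by -0.30 (SE 0.26). With both male null brains left out, the collagen I probe sets lay between -0.41 and 0.26, Col3a1 at -0.35 and Col5a2 at -0.11.

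Basement membrane collagens were led by Col18a1, whose C-terminal fragment is endostatin. It read between 70 and 180.9 in wild-type brains, with a median of 127.1, and 181.2, 153.7, 178.5, 225.5 and 197.7 in null brains. Wild-type 1, at 180.9, was the wild-type brain within the null range. The difference was 0.61 (SE 0.22, unadjusted p = 0.014, adjusted p = 0.14). Without the male null brains it was 0.97 (unadjusted p = 0.0063, adjusted p = 0.9991), and within the B4 mice 0.24 (unadjusted p = 0.19). The LT brains, at 120.2, 70 and 120.9, were the lowest wild-type values. The network chains Col4a1 and Col4a2 hardly varied, with SDs of 0.16 and 0.14 on the log2 scale over the 11 brains. Their differences were -0.17 (SE 0.13) and -0.04 (SE 0.13), and without the male null brains -0.11 and -0.09. Col15a1, the relative of Col18a1, differed by 0.06 (SE 0.29), and by 0.27 without them.

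Col13a1, a transmembrane collagen found at cell adhesion sites and the neuromuscular junction, was the member with the lowest difference. It read between 28.9 and 47 in wild-type brains, with a median of 36.4, and 21.6, 15.4, 29.8, 24.9 and 11.8 in null brains. Only null 3, at 29.8, reached the lower end of the wild-type range. The difference was -0.96 (SE 0.30, unadjusted p = 0.0068, adjusted p = 0.11), -0.93 in males and -0.98 in females. It was thus as large without the male null brains, at -0.98 (unadjusted p = 0.046). Within the B4 mice the difference did not reach an unadjusted p under 0.05 in limma. The wild-type B4 brains averaged 32.8 and the LT brains 41.7. The Col13a1 signals lie near the limit for testing. The null mean of 20.7 was below that limit of 25.8 and the wild-type mean of 37.25 above it, so the probe set was tested because of its wild-type signal. The f in the probe set's name marks probes that can match related sequences, and the second Col13a1 probe set was too dim to test.

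**Figure D1:**
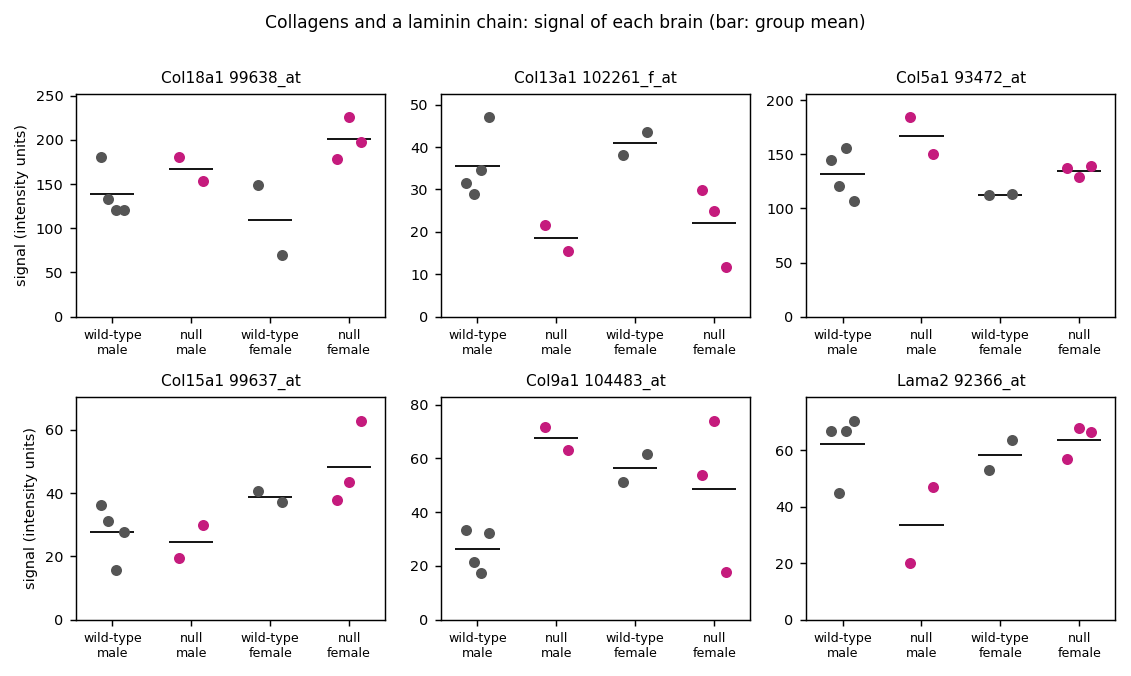
MAS5 signal (intensity units, linear axis from 0) of each brain for 5 collagen probe sets and 1 laminin probe set, in wild-type and null males and females, with the group mean as a bar. Col13a1 sits below the wild-type brains in all null brains but 1, Col15a1 is higher in all 5 females than in all 6 males, and Col9a1 is high in the male null brains and low in the 4 wild-type males.

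Laminins gave no probe set at an unadjusted p under 0.05 in this comparison. Lama2, the alpha chain of the laminin of muscle and of astrocyte endfeet, differed by -0.46 (SE 0.28), and its values are given with the sexes below. Lama1 and Lama5 differed by -0.28 (SE 0.35) and -0.24 (SE 0.42), and Lama4, the alpha chain made by endothelium, by 0.15 (SE 0.31). Lamb1 differed by -0.28 (SE 0.21) on 162263_f_at. On its other probe set, 101948_at, and for Lamc1, the gamma chain shared by most laminins, the difference was 0 to 2 decimals (SE 0.31 and 0.39). Without the male null brains Lama2 was at 0.13 (SE 0.26), Lama1 at 0.10 (SE 0.49), Lama4 and Lama5 at -0.43 and -0.42, Lamb1 at 0.12 and 0.65, and Lamc1 at -0.74 (SE 0.52). The lowest unadjusted p among these was 0.098, for Lamb1 on 101948_at.

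Among the integrins, the largest difference with an unadjusted p under 0.05 was that of Itga3, an alpha subunit that binds laminins. Its probe set 104211_at read between 25.5 and 38.7 in wild-type brains, with a median of 29.1, and 85.3, 58.3, 32.9, 44.2 and 40.6 in null brains. The difference was 0.84 (SE 0.24, unadjusted p = 0.0041, adjusted p = 0.10), and without the male null brains 0.42 (unadjusted p = 0.24). Only null 3 lay within the wild-type range. The second Itga3 probe set, 104210_at, differed by -0.03 (SE 0.49), and by -0.99 (unadjusted p = 0.15) without those brains. Itga7, another laminin receptor subunit, also had probe sets of opposite sign, at 0.45 (SE 0.29) and -0.09 (SE 0.18), as did Itgb5, at 0.17 (SE 0.20) and -0.02 (SE 0.15). On leaving out the male null brains these 4 values were 0.02, 0.10, 0.10 and 0.05. Of the 9 genes with several tested probe sets, the other 6 had probe sets of 1 sign.

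Itgb1, the beta subunit shared by most laminin and collagen receptors, was lower by 0.41 on probe set 100123_f_at (SE 0.16, unadjusted p = 0.023, adjusted p = 0.16). Without the male null brains the difference was 0.07 (unadjusted p = 0.63), so its sign rests on them. Its second probe set, 100124_r_at, differed by -0.26 (SE 0.19), and by -0.36 without them. Itgb1bp1, the protein that binds the tail of that beta subunit, was higher by 0.50 on 100990_g_at (SE 0.16, unadjusted p = 0.0074, adjusted p = 0.11). This fell short of that level without the male null brains, at 0.23 (unadjusted p = 0.30). Its other probe sets differed by 0.24 (SE 0.19) and 0.10 (SE 0.16), and by 0.21 and 0.14 without them. Itgav, the vitronectin and fibronectin receptor subunit, differed by 0.88 (SE 0.66) on 104385_i_at and by 0.28 (SE 0.18) on 104386_f_at. Without the male null brains these were 2.57 (unadjusted p = 0.0054) and 0.64 (unadjusted p = 0.017).

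With both male null brains left out, the genotype difference rests on 3 null and 2 wild-type females. No member passed the adjusted threshold, as in the array as a whole (0.0%), and 5 of 45 had an unadjusted p under 0.05 against 3.54% of all probe sets. These were Col18a1, Col7a1, both Itgav probe sets and Col13a1. Col7a1, the anchoring fibril collagen, differed by 1.06 (unadjusted p = 0.021), with wild-type females at 19.8 and 36.5 and null females at 57.7, 64.4 and 47.9. Within the 8 B4 mice 4 of 45 reached that level against 24.7% of all, and 0 passed the adjusted threshold against 0.349% of all.

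Within males, 5 of the 45 member probe sets passed the adjusted threshold in limma (11.1%), against 32.6% of all probe sets. At an unadjusted p under 0.05 there were 10 (22.2%), against 42.8%. Of the 5, 3 rose in null males, against 17.8% of all, and 2 fell, against 14.8%. In this contrast the 2 male null brains are set against 4 wild-type males, so it also holds their difference in RNA quality. No collagen I, III, IV, V or VI chain passed the threshold.

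The clearest value was that of Itgb1 on 100123_f_at. Null males read 564.4 and 644.4, wild-type males 1049, 1083, 997.4 and 1208, wild-type females 944.8 and 831.3, and null females 883.6, 976.5 and 925.7. Both male null brains lay below the other 9, which overlapped among themselves. The difference in males was -0.84 (SE 0.13, adjusted p = 0.00035), and it held at adjusted p from 0.00013 to 0.010 under every alternative run but the Gapdh ratio as a covariate, with which it was -1.39 (adjusted p = 0.60). The second Itgb1 probe set, 100124_r_at, read 116.1 and 103.9 in null males and 99.4, 103.3, 174.8 and 131.5 in wild-type males, with a difference of -0.17 (SE 0.26, adjusted p = 0.64). Thus the lower signal was seen on 1 of 2 probe sets of the gene. In probe set names of this kind, an f marks probes that can match related sequences, and an r marks a set for which the usual probe selection rules were relaxed.

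Itga3 on 104211_at rose in null males by 1.22 (SE 0.30, adjusted p = 0.0083). The male null brains, at 85.3 and 58.3, were above the other 9, which reached 44.2. The call was lost without null 1, at 0.94 (adjusted p = 0.13), and with the Gapdh ratio as a covariate, at 2.28. Its second probe set differed in the same direction by 0.83 (SE 0.59, adjusted p = 0.31), from null males at 86.6 and 55.2 and wild-type males at 57.1, 52.3, 32.3 and 23.9.

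Itgb1bp1 on 100990_g_at rose by 0.75 (SE 0.19, adjusted p = 0.0089), from null males at 138 and 156.2. None of the other 9 brains exceeded 110.2. Its other 2 probe sets differed by 0.27 and 0.07 in males, with adjusted p of 0.45 and 0.82. The call was lost without null 2 (0.66, adjusted p = 0.098), on centring each array at its median (0.47, adjusted p = 0.090), and within the B4 mice (0.63, adjusted p = 0.053), as well as on adding age (0.63, adjusted p = 0.059) or the Gapdh ratio (1.03, adjusted p = 0.72) to the model.

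Col9a1 and Lama2 were the matrix chains past the threshold in males. Col9a1, a chain of the fibril-associated collagen IX, read 71.6 and 63.3 in null males and 33.5, 21.3, 17.4 and 32.3 in wild-type males, a difference of 1.42 (SE 0.49, adjusted p = 0.040). The female brains, at 17.6 to 74.1, covered both ranges. The other collagen IX chains, Col9a2 and Col9a3, differed in males by 0.60 (SE 0.23, adjusted p = 0.065) and 0.17 (SE 0.17, adjusted p = 0.48). Lama2 read 19.9 and 47 in null males and 66.8, 44.9, 66.8 and 70.5 in wild-type males, a difference of -1.003 (SE 0.33, adjusted p = 0.033). One wild-type male lay below null 2, and without null 1 the difference was -0.38 (adjusted p = 0.46). It also missed the threshold without wild-type 1, 4 or 6, at adjusted p from 0.058 to 0.068. Col9a1 missed it without wild-type 2, 3, 4 or 5 or either male null brain, at adjusted p from 0.0515 to 0.19. Both calls were lost within the B4 mice and with age, the number letters or the Gapdh ratio as a covariate.

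Set against all other brains together, the male null brains lay above the rest for 4 of the 45 probe sets, against 20.7% of all probe sets. These were Col6a2, Itga3 104211_at, Itga7 93061_at and Itgb1bp1 100990_g_at. They lay below the rest for 1, Itgb1 100123_f_at, against 16.5% of all.

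**Figure D2:**
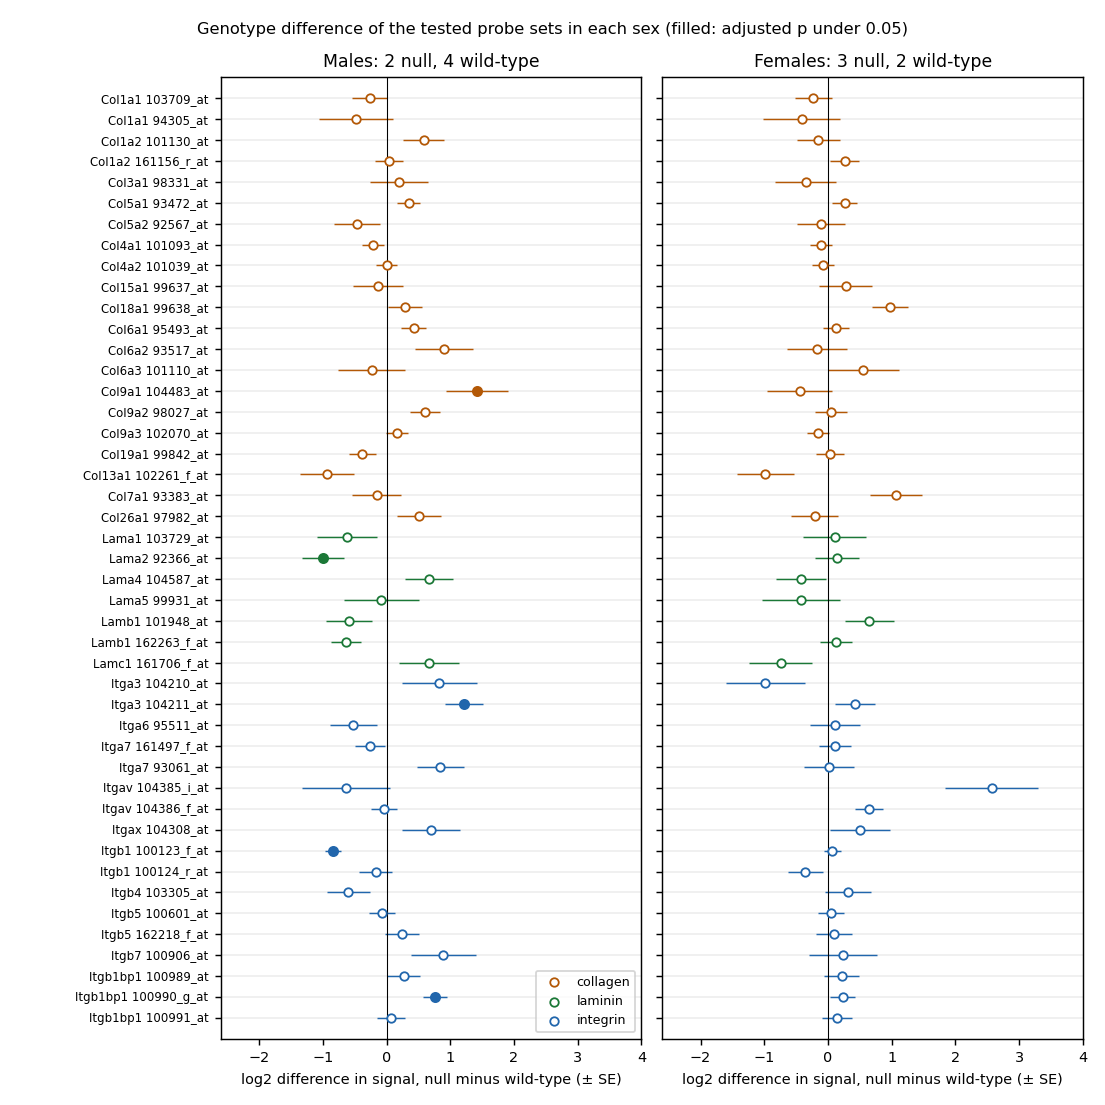
Genotype difference (log2 signal, null minus wild-type, ± SE) of each of the 45 tested probe sets in males on the left and in females on the right, from 1 limma model, with filled points past an adjusted p of 0.05. The 5 filled points, all in males, are Col9a1, Lama2, Itga3, Itgb1 and Itgb1bp1, and no point is filled in females.

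Whether the genotype difference itself differs between the sexes was tested as an interaction, the difference in females minus that in males. Of the 45 member probe sets 2 passed the adjusted threshold (4.44%), against 15.9% of all probe sets, and 8 had an unadjusted p under 0.05 against 30.9%. Both passing probe sets were of integrins and had a higher difference in females, which 7.25% of all probe sets had at that threshold. Itgb1 on 100123_f_at had an interaction of 0.91 (SE 0.18, adjusted p = 0.0067), from -0.84 in males and 0.07 (SE 0.13) in females. Its second probe set had -0.18 (SE 0.38, adjusted p = 0.79). The adjusted p lay between 0.0036 and 0.039 under every alternative run but the Gapdh ratio as a covariate, with which the value was 1.35 (adjusted p = 0.47).

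Itgav on 104385_i_at had an interaction of 3.21 (SE 1.01, adjusted p = 0.047), from -0.64 (SE 0.69) in males and 2.57 (SE 0.73) in females. It read 1.4 and 37.2 in wild-type females, 53.2, 57.6 and 84.8 in null females, 65.6, 66.9, 113.8 and 52.5 in wild-type males, and 49.7 and 42.7 in null males. The value of 1.4 is that of wild-type 3, and without this brain the interaction was 1.41 (adjusted p = 0.096). The call was also lost on leaving out any 1 of the other brains except wild-type 5, at adjusted p from 0.052 to 0.14, and without wild-type 5 the value was 4.999 (adjusted p = 0.0038). On the brighter probe set, 104386_f_at, the interaction was 0.68 (SE 0.30, adjusted p = 0.15), with wild-type females at 708.3 and 462.3 and null females at 1054, 695.9 and 961.3. The i in the dimmer set's name marks a set with fewer probes than usual.

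The next lowest p belonged to Col9a1 at -1.87 (SE 0.71, adjusted p = 0.091), Lama2 at 1.14 (SE 0.47, adjusted p = 0.12) and Lamb1 on 101948_at at 1.23 (SE 0.53, adjusted p = 0.13). Lama2 was at 0.52 (adjusted p = 0.48) without null 1 and at 1.76 (adjusted p = 0.037) without null 2, and Col9a1 passed the threshold without null 4, at -2.29 (adjusted p = 0.0495). Leaving out 1 brain moved Col9a1 between -2.29 and -1.25 and Lamb1 between 0.82 and 1.64. For Col9a1, null 5 read 17.6, against 53.9 and 74.1 in the other null females. For Lamb1, a beta chain of embryonic and vascular laminins, null males read 31.4 and 55.5 and wild-type males 55.5, 42.6, 81.2 and 80.1. In females the order was the other way, with wild-type at 51.1 and 31.7 and null at 79.8, 45.6 and 69. The second Lamb1 probe set had 0.76 (SE 0.35, adjusted p = 0.16).

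**Figure D3:**
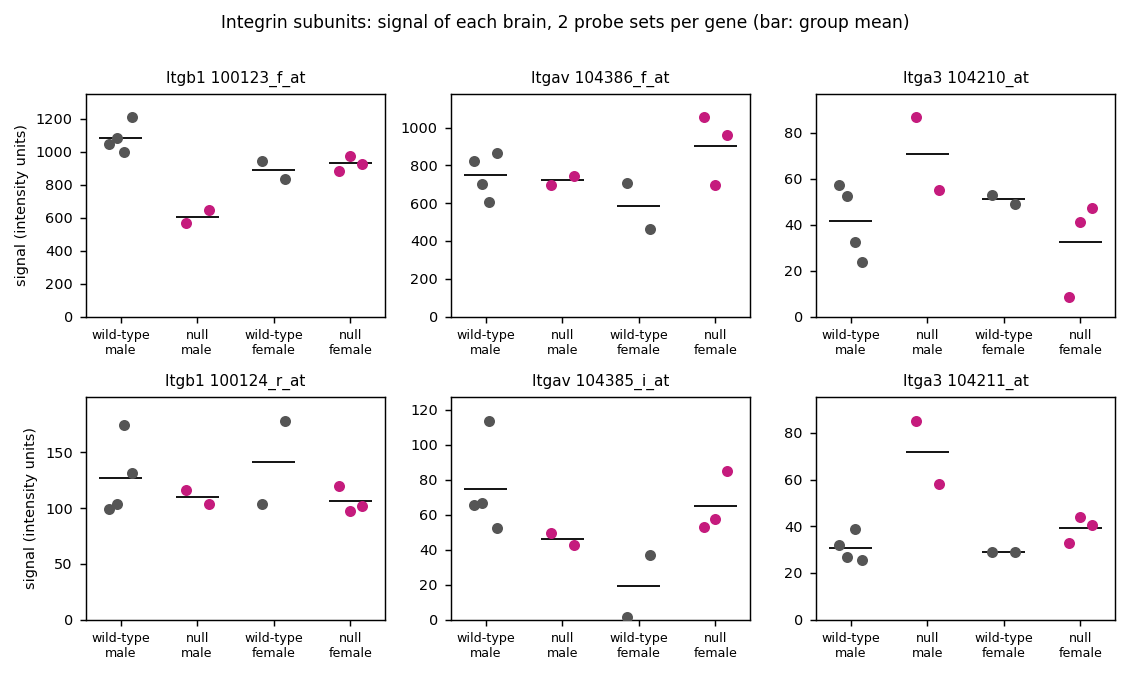
MAS5 signal (intensity units, linear axes from 0) of each brain for 2 probe sets each of Itgb1, Itgav and Itga3, in wild-type and null males and females, with the group mean as a bar. On Itgb1 100123_f_at the male null brains lie below all others at 564.4 and 644.4, which is not seen on 100124_r_at, and on Itgav 104385_i_at a single wild-type female reads 1.4.

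The comparison of females with males, with genotype in the model, gave no member past the adjusted threshold in limma (0 of 45, and 0.0% of all probe sets). An unadjusted p under 0.05 was reached by 2 of 45 (4.44%), against 12.4% of all. Col15a1, a collagen of the outer zone of basement membranes, was the member whose sexes were separated, which held for 0.201% of all probe sets with females higher. It read 40.5 and 37.3 in wild-type females, 37.8, 43.6 and 62.9 in null females, 36.3, 31.2, 15.7 and 27.8 in wild-type males, and 19.5 and 29.8 in null males. The highest male, at 36.3, lay just below the lowest female, at 37.3. The difference was 0.75 (SE 0.29, unadjusted p = 0.021, adjusted p = 0.34), and without the male null brains 0.55 (adjusted p = 0.68). With those left out every null brain is female, so the sex value compares 2 wild-type females with 4 wild-type males.

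The other members with the lowest p in the sex comparison were lower in females. Itgb1bp1 on 100990_g_at differed by -0.35 (SE 0.16, unadjusted p = 0.049, adjusted p = 0.40), Lamc1 by -0.79 (SE 0.39, adjusted p = 0.42), Itgav on 104385_i_at by -1.22 (SE 0.66, adjusted p = 0.47) and Col5a1 by -0.25 (SE 0.14, adjusted p = 0.47). Without the male null brains, again for 2 wild-type females against 4 wild-type males, the Itgb1bp1 value was -0.097 and that of Lamc1 -0.12. Itgav was then at -2.74, which holds the value of 1.4 in wild-type 3, and Col5a1 at -0.21. The Lamc1 value includes null 3 at 24.3, against 52 to 167.6 in the other brains.

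Col1a1, the main chain of collagen I, had on its probe set 94305_at the largest differences of the 45 tested probe sets by the number letters and by age, which were examined after its values were seen. On 94305_at the wild-type B4 brains read 25.3, 80.5 and 77 and the LT brains 161.3, 123.1 and 161. On 103709_at they read 108.9, 112.1 and 107.5 against 150.1, 172.2 and 164.3. On both probe sets every LT brain lay above every wild-type B4 brain, as for 3 of the 45 member probe sets and 9.24% of all. Every LT brain lay below for 4 of 45, and for 9.16% of all. The LT minus B4 differences were 1.45 (SE 0.39, unadjusted p = 0.0037, adjusted p = 0.14) and 0.56 (SE 0.17, unadjusted p = 0.0068, adjusted p = 0.17) in limma. Without wild-type 1 the first was 0.90 (adjusted p = 0.083). All LT mice were 6 weeks old and the wild-type B4 mice 7 to 9 weeks old, so the letters and age cannot be told apart.

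In that comparison among wild-type brains no member passed the adjusted threshold, against 0.55% of all probe sets, and 5 of 45 had an unadjusted p under 0.05 (11.1%) against 12.9% of all. Itgb1 on 100124_r_at read 174.8, 178.5 and 131.5 in LT brains and 99.4, 103.3 and 103.7 in wild-type B4 brains, a difference of 0.65 (SE 0.19, unadjusted p = 0.0057, adjusted p = 0.16). Its brighter probe set differed by -0.03 (SE 0.16). Col18a1 differed by -0.61 (SE 0.24, adjusted p = 0.33) and Itgb1bp1 on 100989_at by -0.50 (SE 0.20, adjusted p = 0.33). The partner chain Col1a2 differed by 0.31 (SE 0.31) and -0.27 (SE 0.19) on its 2 probe sets and Col3a1 by 0.36 (SE 0.40) on its 1 tested probe set. Of 9 meningeal fibroblast markers tested, 1 was higher and 1 lower in LT brains at an unadjusted p under 0.05, with a median of -0.14. The higher was Igfbp2 (1.47, adjusted p = 0.062) and the lower Ptgds (-0.58, adjusted p = 0.18). The summed signal of the list, most of which is Ptgds, was 6354.5 to 8404.8 in LT and 8857.4 to 10482 in wild-type B4 brains, and the part of such cells in the result was not tested.

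Per week of age over all 11 brains, with genotype and sex in the model, Col1a1 on 94305_at differed by -0.71 (SE 0.13, unadjusted p = 0.00013, adjusted p = 0.17). Within the B4 mice the value was -0.69 (adjusted p = 0.99). It was -0.72 without the male null brains (adjusted p = 0.067), and on leaving out wild-type 1 it was -0.45 (adjusted p = 0.21). On the second Col1a1 probe set, 103709_at, it was -0.15 (SE 0.11, unadjusted p = 0.17). On 94305_at wild-type 1, a B4 male of 9 weeks, held the lowest value, at 25.3, and the null brains of 7 to 9 weeks read 52.4 to 86. On 103709_at the null brains read 88.2 to 152.9, and the highest of them lay within the LT range. No member passed the adjusted threshold, nor did any probe set (0.0%), and 4 of 45 had an unadjusted p under 0.05 (8.89%) against 9.98% of all. The other 3 were Itgb1 on 100124_r_at at -0.24 (SE 0.09), Itga3 on 104210_at at 0.59 (SE 0.23) and Itgb1bp1 on 100989_at at 0.25 (SE 0.08), each as log2 per week. The values without the male null brains were -0.26, 0.52 and 0.25.

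**Figure D4:**
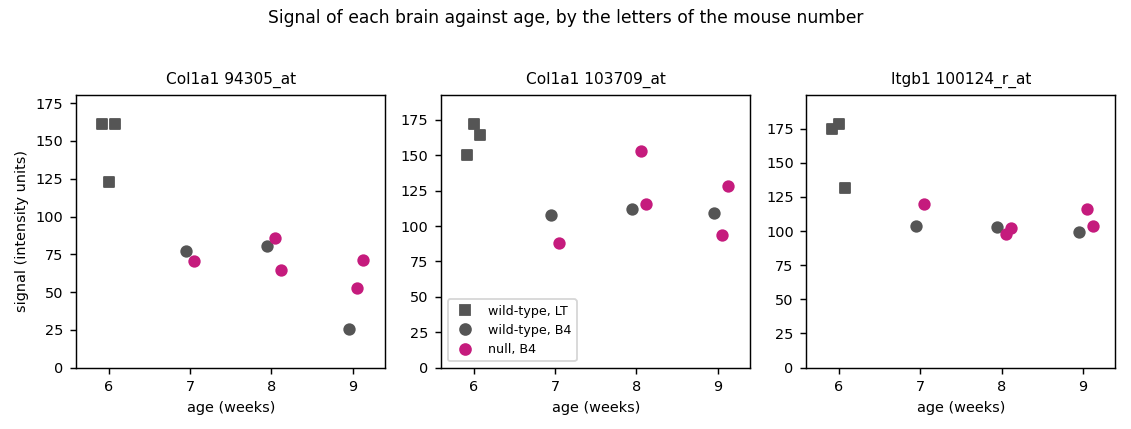
MAS5 signal (intensity units, linear axes from 0) of each brain against age in weeks for both Col1a1 probe sets and Itgb1 100124_r_at, with squares for LT and circles for B4 mice and grey for wild-type and magenta for null. The 3 LT brains, all at 6 weeks, lie above the wild-type B4 brains on each probe set, while no such separation by genotype is seen.

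Chains that assemble into 1 protein were compared over the 9 brains other than the male null ones. Of 19 pairs listed, 15 could be tested with 1 probe set per gene. Pearson's r ran from -0.56 to 0.63 with a median of 0.13 and was positive in 12 pairs. No pair passed after Benjamini-Hochberg adjustment over the 15, the lowest adjusted p being 0.42 by exact permutation.

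Col6a1 and Col6a2, which join Col6a3 in collagen VI, had the highest r, at 0.63 (rho = 0.75), with two-sided exact permutation p of 0.0498 and 0.025 before adjustment. Without the 2 brains farthest from the median of Col6a1 the r was 0.51 (exact permutation p = 0.26). Null 5 had the lowest value of both chains, at 158.8 for Col6a1 and 16.2 for Col6a2. The genes are neighbours on chromosome 10 of GRCm38.p6, both on the minus strand and 85161 bases apart. Lamb1 and Lamc1 had an r of 0.61 (rho = 0.63, exact permutation p = 0.092 and 0.076), and Itga6 and Itgb1, which form a laminin receptor, 0.59 (rho = 0.63, exact permutation p = 0.095 and 0.076).

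Col4a1 and Col4a2 had the lowest r, at -0.56 (rho = -0.69), with exact permutation p of 0.11 and 0.047 before adjustment. These genes lie head to head on chromosome 8, on opposite strands, and their annotated 5' ends overlap by 85 bases in GRCm38.p6. Both hardly varied, so that the correlation rests on small differences: Col4a1 read 134.7 to 191.3 and Col4a2 202.1 to 285.3 over the 11 brains. After centring each array at its median the r was -0.17 (exact permutation p = 0.67), and on residuals after genotype and sex -0.73 (exact permutation p = 0.027).

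**Figure D5:**
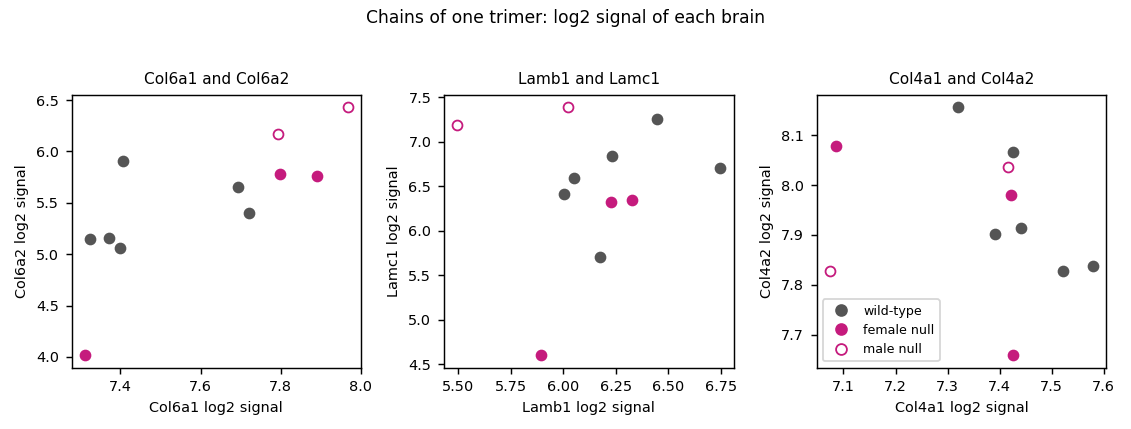
Log2 MAS5 signal of each brain for 3 pairs of chains of 1 trimer, with wild-type brains in grey, female null brains in magenta and male null brains as open circles. Over the 9 filled points, Col6a1 and Col6a2 have r = 0.63, with null 5 lowest on both. Lamb1 and Lamc1 have r = 0.61, and Col4a1 and Col4a2, over a narrow range, r = -0.56. None of the 15 pairs tested passed after adjustment.

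Since the collagen VI pair had the highest correlation of the 15, the 250 bases before the start of each gene are shown, from RefSeq on GRCm38.p6, in the direction of the gene. They are Col6a1 at chr10:76726045-76726294 and Col6a2 at chr10:76623631-76623880, both on the minus strand. Capitals mark a GC box, GGGCGG or CCGCCC.
Col6a1: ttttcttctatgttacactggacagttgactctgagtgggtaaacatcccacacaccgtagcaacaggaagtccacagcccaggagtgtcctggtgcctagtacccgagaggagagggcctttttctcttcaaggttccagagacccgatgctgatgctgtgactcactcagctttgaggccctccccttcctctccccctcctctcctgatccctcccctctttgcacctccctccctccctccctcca
Col6a2: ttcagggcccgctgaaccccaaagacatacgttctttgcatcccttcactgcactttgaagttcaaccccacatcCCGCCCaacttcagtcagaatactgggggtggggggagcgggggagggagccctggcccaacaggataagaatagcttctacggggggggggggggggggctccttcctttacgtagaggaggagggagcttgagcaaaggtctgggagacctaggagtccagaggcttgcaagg
The Col6a2 window held 1 GC box and the Col6a1 window none, and neither held CCAAT or TATAAA on either strand. The windows were 56% and 59.2% G and C. Of the 59 member genes, 39 had such a window, and 18 of these (46.2%) held a GC box against 33.0% of 27025 genes. CCAAT was found in 10 (25.6%) against 34.5%, and TATAAA in 5 (12.8%) against 13.0%. These are matches of letters and do not show that a factor binds.

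The members lie on 19 chromosomes. There were 6 pairs of direct neighbours among named genes: Col9a1 and Col19a1, Col3a1 and Col5a2, and Col4a4 and Col4a3 on chromosome 1, Itgam and Itgax on 7, Col4a1 and Col4a2 on 8, and Col6a2 and Col6a1 on 10. Col3a1 and Col5a2 also had a positive r over the 9 brains, at 0.28 (rho = 0.30, exact permutation p = 0.46 and 0.44), which was -0.25 without the 2 brains farthest from the median.

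As a description of each array, the mean log2 signal of the 45 probe sets was 6.20 (SD 0.07, n = 6) for wild-type mice and 6.27 (SD 0.08, n = 5) for null mice. Over all probe sets tested it was 7.21 (SD 0.03) and 7.27 (SD 0.06). The sign of the members' difference turned under quantile normalization (-0.03) and median centring (-0.06). By family the means were 6.21 and 6.28 for collagens, 5.67 and 5.51 for laminins and 6.39 and 6.56 for integrins, in wild-type and null brains in that order, and the ranges overlapped in each. Without the male null brains the null means were 6.27, 5.545 and 6.53.

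Genes that build, cut or bind these proteins were counted in 7 lists with 65 genes tested. None passed the adjusted threshold in the genotype comparison, and 15 had an unadjusted p under 0.05, a share of 23.1% that equals the share of all probe sets. In the interaction 14 of 65 passed, 6 with a higher and 8 with a lower difference in females, against 15.9% of all probe sets. The partners of basement membranes, 10 genes tested, had 3 of these. Sparc, a collagen-binding glycoprotein, had a mean signal of 308.2 (SD 52.7, n = 6) for wild-type mice, 507.3 (SD 209.4, n = 5) for null mice, and an interaction of -1.35 (adjusted p = 0.0042). Fbln1, the elastic fibre protein fibulin 1, had -0.88 (adjusted p = 0.023) and Sgcb, of the sarcoglycan complex that joins muscle cells to laminin, had -1.50 (adjusted p = 0.030). Without the male null brains the genotype differences of these 3 were 0.02, 0.08 and -0.12. The summed signal of the list was 2397.2 to 2625.9 in null males, 2019.8 to 2058 in null females and 1795.1 to 2031.5 in wild-type mice.

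The integrin adhesion complex had 5 of 15 genes past the threshold in the interaction, 4 with a higher and 1 with a lower difference in females. Actn1, an actin crosslinker at integrin tails, had 1.22 (adjusted p = 0.0025), and its genotype difference without the male null brains was 0.12. Integrin partners and cellular ligands had 2 of 6, with 1 each way. Cd47, a membrane partner of integrins, had 0.99 (adjusted p = 0.0035) and a genotype difference of -0.0052 without those brains, and Cd81, a tetraspanin that associates with integrins, had -1.07 (adjusted p = 0.032). The summed signals of both lists were below all other brains in the male null ones, at 3853.6 to 3870 against 4498.4 to 5247.1 in wild-type brains for the complex, and 2253.8 to 2417.3 against 3149.5 to 3529.1 for the partners and ligands. Most of the partners and ligands sum was Cd47, with a wild-type mean of 1995.3, followed by Cd81 at 708.6. Itgb1 on 100123_f_at was low in these same 2 brains, in which 16.5% of all probe sets lay below all other brains. Collagen folding and crosslinking had 1 of 9 past the threshold, Serpinh1, the collagen chaperone, at -1.93 (adjusted p = 0.034). Interstitial matrix had 2 of 9, of which Fmod, a collagen-binding proteoglycan, had -3.32 (adjusted p = 0.0033). Brain matrix had 1 of 10, Ptprz1, at 1.49 (adjusted p = 0.0022), and matrix proteases and inhibitors had 0 of 6, with an unadjusted p under 0.05 in 1.

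Some genes of the cell type marker lists are also held by other lists. In the male null brains the summed signals of some marker lists lay outside the wild-type range and those of others within it. Over all probe sets 15.9% passed the interaction. The summed signal of 10 microglia markers was 2217.4 to 2589.6 there against 1808.5 to 2216.6 in wild-type brains, and 5 of 8 tested passed the interaction, C1qa, C1qb, C1qc and Cd68 with a lower and Tyrobp (1.123, adjusted p = 0.022) with a higher difference in females. That of 7 neuron markers was 12182.2 to 12905.9 against 9617.8 to 11906.2, with 4 of 7, and that of 4 choroid plexus markers 684.9 to 930.9 against 999.4 to 1773.9, with 1 of 3. Most of the neuron sum was Snap25 (wild-type mean 6025, null mean 5704), which had a genotype difference of -0.09. At an unadjusted p under 0.05 in limma, 4 of the 7 neuron genes were higher in null brains and 0 lower, Snap25 not among them. Most of the choroid plexus sum was Ttr (wild-type mean 1146.2, against 94.0 for Kl and 28.9 for Folr1). The genotype difference was -0.36 for Ttr and -0.19 for Kl, and 1.13 for Folr1 (unadjusted p = 0.015 in limma). Endothelium, at 1313.1 to 1437.7 against 1217.4 to 1755.9, had 0 of 10 past the threshold, with an unadjusted p under 0.05 in 4. Its sums in null females, at 1060.4 to 1155, lay below those of all other brains. Pericytes and smooth muscle, at 439.9 to 458.2 against 305.5 to 423.7, had 0 of 5, with 1 at that level, and meningeal fibroblasts, at 7116.5 to 8164.4 against 6354.5 to 10482, had 1 of 9. The 2 erythroid markers summed to 2159.3 to 2190.7 in null males, 3694.1 to 5715.5 in null females and 2354.8 to 6073.4 in wild-type mice, so that both male null brains lay below all others, and 0 of 2 passed the interaction, with an unadjusted p under 0.05 in 1. Nearly all of this sum was Hba-a1, with a wild-type mean of 4117.3 against 34.8 for Alas2. Over all 11 marker lists 13 of 65 tested genes passed the interaction and 0 the genotype comparison. The part of these cells in the values of Itgb1, Itga3, Itgb1bp1, Col9a1 and Lama2 was not tested.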

How the data were processed

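Total RNA of whole brain was hybridised as biotin-labelled transcripts, 1 array per mouse, per the labels' protocols. The deposited values are intensities made by the authors with MAS5, per the submitters' processing notes; other settings are not given in the sources used here. Of 12488 probe sets, 66 controls were left out, and 10855 named 1 gene. All 91 member probe sets matched RefSeq symbols. Intensities below 3.1, the 10th percentile of the table, were raised to it and log2 was taken. Probe sets whose mean log2 was under the 40th percentile (4.69) were not tested. limma 3.58.1 in R 4.3.3 (lmFit, eBayes with trend) was fitted to the whole table with Benjamini-Hochberg adjustment. The code was tested on simulated data.

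The groups come from the sample titles, and each brain counts as a replicate. Members, lists and pairs were chosen with earlier results of these data known, and the letters and age comparisons were added after seeing the values. Members were named if they passed an adjusted p of 0.05 in the genotype, sex or interaction fit, had an unadjusted p under 0.05 for genotype, were among the 5 lowest p for sex or interaction, did not overlap between genotypes, belonged to tested chain pairs, or had probe sets of opposite sign. Alternatives were quantile normalization, median centring, other floors and filters, age, number letters or the Gapdh ratio as covariates, no covariate, no trend, leaving out the male null brains, the B4 mice alone, and leaving out each brain. The number of arrays limits the precision of every value.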

Additional observations from a re-analysis of the deposited data

Results flagged for a closer look

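Single brains stood apart from their genotype group by Dixon's test in 5 of 64 member probe sets and groups tested, and chance flags about 1 in 20. Itgav on 104385_i_at read 1.4 in wild-type 3, against 37.2 to 113.8 in the other wild-type brains. Col1a2 on 161156_r_at read 563.6 in wild-type 1, against 329.2 to 388.7. The other 3 were all in null 5, a female, in which Col9a1 read 17.6 against 53.9 to 74.1 in the other null brains, Col6a2 read 16.2 against 54.1 to 86.3 and Col6a1 read 158.8 against 221.9 to 250.3.

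The genotype difference differed between the sexes by the interaction test for 2 members. For Itgb1 on 100123_f_at the female minus male difference was 0.909, and for Itgav on 104385_i_at it was 3.206, of which the latter holds the value of 1.4 above.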

How the results depend on the processing

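No paired analysis was possible because the labels give no replicate numbers shared between the genotypes. Counts are of member probe sets. For genotype, leaving out 1 brain at a time gave 0 to 2 past the adjusted threshold, the 2 being Itgb1 100123_f_at (-0.55, adjusted p = 0.042) and Itga3 104211_at (0.93, adjusted p = 0.045) without wild-type 5, and every other alternative gave 0. At an unadjusted p under 0.05 there were 11 of 91 with no signal filter, 2 with age and 3 with the letters as a covariate, and 4 to 8 on leaving out 1 brain, against 6. For sex that count was 4 with median centring, 7 with no filter, 0 with the 60th percentile filter, 1 without a covariate, 1 with age, 4 without the male null brains, 4 within B4 mice and 0 to 4 on leaving out 1 brain, against 2. For the interaction, 1 probe set passed the adjusted threshold with the floor at the 5th percentile, with no filter, with the 60th percentile filter, with age or without a trend, 0 passed with the Gapdh ratio, and 1 to 2 on leaving out 1 brain. At an unadjusted p under 0.05 there were 2 with the 60th percentile filter, 3 within B4 mice, 2 with the Gapdh ratio and 4 to 11 on leaving out 1 brain, against 8. Within males, 8 passed with median centring, 2 with the 60th percentile filter, 2 within B4 mice, 3 with the letters, 0 with the Gapdh ratio and 3 to 6 on leaving out 1 brain, against 5. For age, 12 had an unadjusted p under 0.05 with no filter and 4 to 8 on leaving out 1 brain, against 4. Values that turned sign were those of Itgb1 100123_f_at for genotype, at 0.066 without the male null brains and 0.086 with the Gapdh ratio, and of Col9a1 with the Gapdh ratio, at 1.68 for the interaction and -2.99 in males. The mean level of the members turned under quantile normalization (-0.0265) and median centring (-0.0605). The collagen and laminin medians for genotype turned without the male null brains, at -0.11 and 0.10. Filters change which probe sets are tested, and the cause of the other changes was not tested. With 2 male null brains, which also differ in RNA quality, the Gapdh ratio and the group are nearly the same variable, and dim probe sets near the floor have understated folds.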
